A study of Homo sapiens with 9 samples.

Results

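The mRNAs of 9 apicobasal polarity and tight junction genes were followed across early neuroepithelial cultures made from H9 cells (a long-established human embryonic stem cell line): the claudins CLDN6, CLDN7 and CLDN3, occludin (OCLN), the junction scaffold TJP1, the PAR complex genes PARD3, PARD6B and PRKCI, and the Crumbs complex gene PALS1, which GENCODE v29 lists as MPP5. They were chosen by symbol from a table of 62710 Ensembl genes, and all 9 were among the 23075 with enough counts to be tested. Wild-type cells were kept for 72 h in mTeSR1 on Matrigel-coated polydimethylsiloxane plates and then for 48 h in N2B27 with the TGF-beta receptor inhibitor SB431542 and the BMP receptor inhibitor LDN. Dual SMAD inhibition then went on for 24 h on plates curved to a concave shape (3 libraries), on plates curved to a convex shape (3 libraries) or on plates left flat (3 libraries), so every group received the inhibitors and no group stayed in pluripotency medium. The 9 poly(A)-selected RNA-seq libraries are numbered 1 to 3 within each plate shape in the labels. The labels do not say what a number stands for or whether the cultures were separate, so a p-value here measures only how far the libraries differ from one another, and that spread may be technical. Values are CPM (a gene's count per megacount of the library) with TMM-scaled library sizes, and a gene was called at an edgeR quasi-likelihood adjusted p under 0.05 over all tested genes.

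CLDN7 mRNA was 4.68-fold higher in the 3 libraries numbered 3 than in the 6 numbered 1 and 2, and higher on every plate shape. It was the 1 member of 9 that passed a test between numbers, where 11.8% of all tested genes passed over the 3 numbers and 17.9% for number 3. CLDN6 was by far the most abundant of the 9 per length of transcript. CLDN3 was lower in all 3 convex libraries than in any flat library, a difference that did not pass the test over all genes. The scaffold and polarity genes TJP1, PARD3, PARD6B, PRKCI and PALS1 had log2 differences of number 3 between -0.10 and 0.28, and none passed between numbers or plate shapes.

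Tight junctions seal the narrow space between epithelial cells at the border of the apical and the lateral membrane. Claudins pair across that space and set how tight and how ion-selective the seal is, occludin lies beside them in the strands, and TJP1, also called ZO-1, ties both to the actin cytoskeleton. The position of this border is set by antagonism between the apical PAR and Crumbs complexes and the basolateral Scribble complex. Neuroepithelial cells keep an apical junction belt with TJP1 and PAR proteins, and in mouse and chick embryos they lose occludin as the neural plate folds into a tube.

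Sequences before the transcription start are shown for CLDN7, the member that was called, and for CLDN3, the member with the largest difference between plate shapes. They are the 250 bases before each start in RefSeq (GRCh38.p14), 5′ to 3′ on the gene's strand. Each was searched on both strands for CAGGTG, which reads as the reverse complement CACCTG on the other strand, the E-box bound by the repressors ZEB1 and ZEB2, and for AACCGGTT, a palindrome bound by grainyhead-like factors. Capitals mark a match, and no match of one motif overlapped the other. RefSeq gives CLDN7 a pair of starts on the minus strand of chromosome 17. The window before the upstream start lies at chr17:7263214-7263463 and held no match, and the CLDN3 window, on the minus strand at chr7:73770271-73770520, held none either.
CLDN7 upstream start: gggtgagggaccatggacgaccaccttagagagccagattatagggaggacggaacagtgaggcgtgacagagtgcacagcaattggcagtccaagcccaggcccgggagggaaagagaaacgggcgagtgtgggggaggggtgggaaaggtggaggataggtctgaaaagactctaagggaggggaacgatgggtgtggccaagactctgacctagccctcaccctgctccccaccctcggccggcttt
CLDN3 start: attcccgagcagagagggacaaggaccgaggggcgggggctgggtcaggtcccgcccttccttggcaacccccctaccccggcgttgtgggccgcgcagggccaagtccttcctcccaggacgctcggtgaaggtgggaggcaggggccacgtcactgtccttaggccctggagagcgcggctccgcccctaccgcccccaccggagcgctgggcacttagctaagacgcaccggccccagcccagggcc

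The window before the downstream CLDN7 start, chr17:7262479-7262728, held 4 matches to CAGGTG or CACCTG. Their first bases lay 174, 135, 20 and 9 bases before the start, the outer pair as CACCTG. All 250 bases of that window lie in an exon annotated by GENCODE v29, so only the 30 bases around each match are shown, at chr17:7262635-7262664, chr17:7262596-7262625 and chr17:7262479-7262508.
CLDN7 match farthest from the start: tttcttcctcctCACCTGggcaaggagggg
CLDN7 second match: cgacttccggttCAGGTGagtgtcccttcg
CLDN7 matches next to the start: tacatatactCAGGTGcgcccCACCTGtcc

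Of 35116 RefSeq windows, 17.5% held at least 1 such E-box, 0.464% at least 3 and 0.122% at least 4. Windows were listed for 7 of the 9 members, 12 windows in all, and 4 of the 12 held the E-box: the downstream CLDN7 start, both OCLN starts and 1 of 4 TJP1 starts. None held AACCGGTT, which 0.117% of all windows held. PARD3 and PARD6B were not matched. A match is a description of letters and was not tested for binding.

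The libraries held between 49420082 and 64763412 counts, and the lowest count of any member was 357, for OCLN in flat 2. The flat library numbered 2 stood apart from the others on the first principal component of log2 CPM, which held 43.9% of the variance. It was the lowest of the 9 libraries for TJP1, OCLN, PRKCI and PALS1 and the highest for PARD6B and CLDN3. Markers of more than 1 stage were present. Listed pluripotency mRNAs summed to between 4818 and 4896 CPM in the libraries numbered 3 and to between 3094 and 3449 CPM in those numbered 1 and 2. Early neuroectoderm mRNAs summed to between 422 and 507 CPM in the libraries numbered 3 and to between 599.6 and 837 CPM in the others, with SIX6 under 1 CPM in every library. PAX6, a defining gene of human neuroectoderm, averaged 1.16 ± 0.121 CPM in the libraries numbered 3 (SD, n = 3) and 4.31 ± 2.12 CPM in the others (SD, n = 6). SIX3, a gene of anterior neuroectoderm, averaged 33.8 ± 10.2 CPM and 154 ± 36.1 CPM in the same groups. The neuroepithelial label thus goes with low PAX6, most of all in the libraries numbered 3. This does not hold for every gene of the list: OTX2 and SOX1 had log2 differences of number 3 of 0.06 and 0.12 and were not called.

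All 9 members were detected in all 9 libraries. Per kilobase (kb) of transcript, CLDN6 averaged 389 CPM per kb over the 9 libraries, with a range from 258 to 635 that overlapped no other member's. TJP1 came next at 19.9 CPM per kb, with a range from 10.7 to 23.7 that overlapped those of the next 4. CLDN7 averaged 14.7 CPM per kb, PRKCI 13.8, PARD3 13.3 and CLDN3 12.7 over ranges that all overlapped. PALS1 followed at 7.0 CPM per kb, with a range from 5.42 to 8.16 that reached into those of CLDN7 and CLDN3. OCLN at 3.23 and PARD6B at 1.93 CPM per kb were the lowest, and their ranges of 1.84 to 4.07 and 1.59 to 2.87 overlapped.

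**Figure D1:**
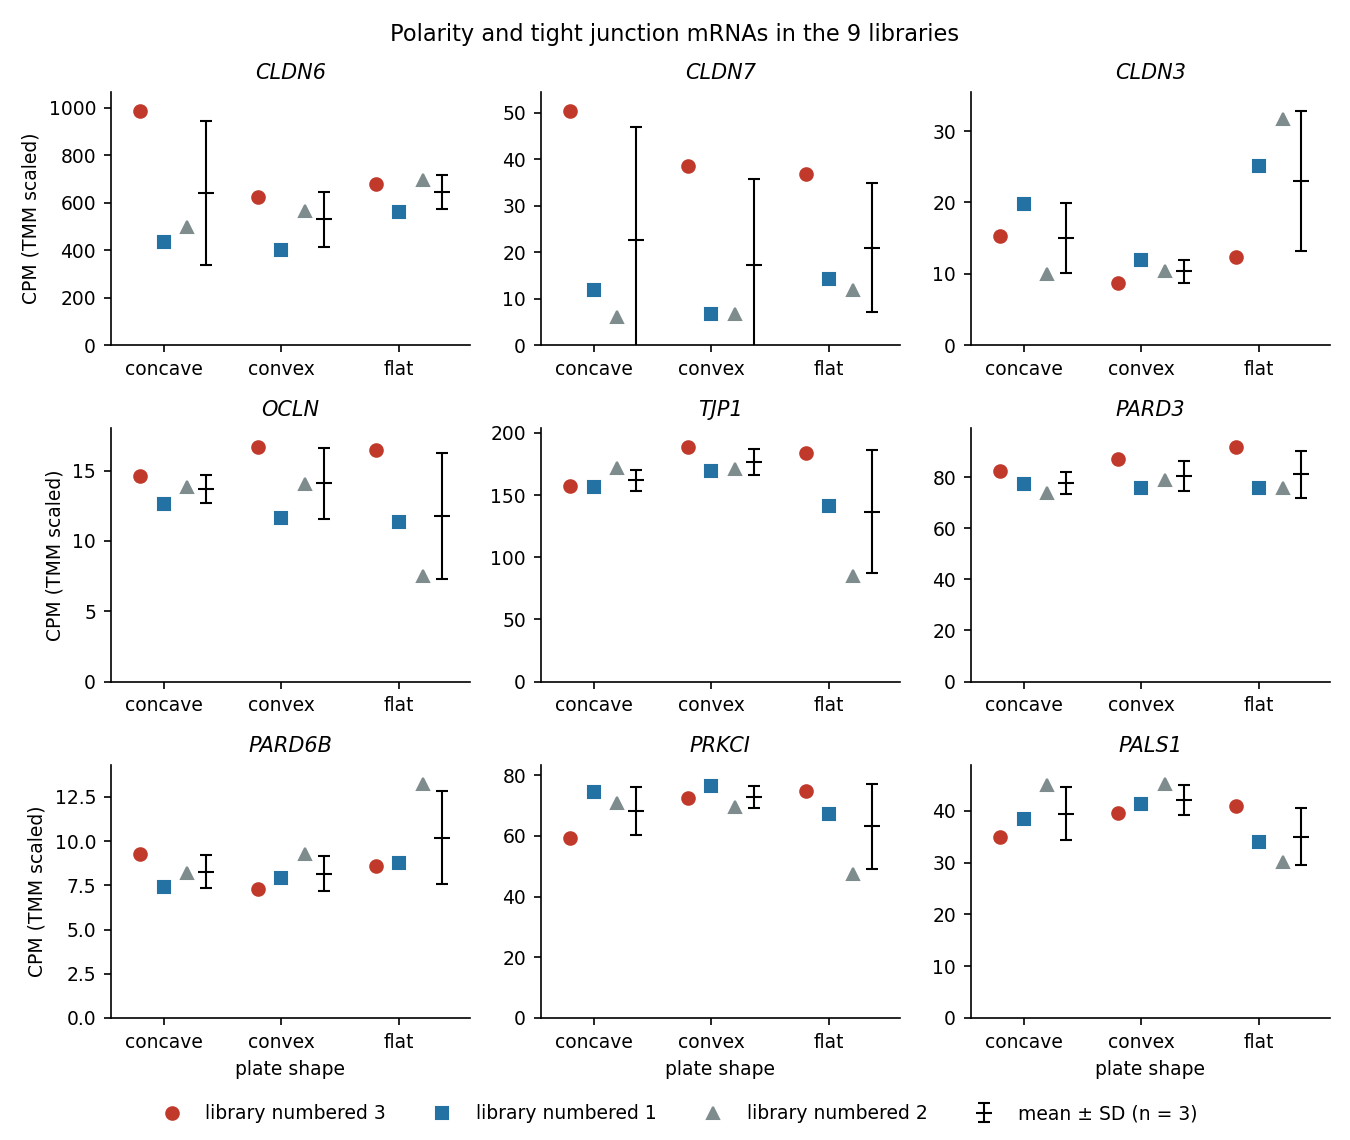
CPM (linear axes from 0, TMM-scaled library sizes) of the 9 members in each library by plate shape, with the library's number as symbol and, beside it, the mean ± SD of the 3 libraries; bars that would reach below 0 end at the axis. In the CLDN7 panel the libraries numbered 3 sit between 36.8 and 50.4 CPM, above all 6 others, and in the CLDN3 panel the convex libraries sit at or under 11.9 CPM, below all flat ones.

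CLDN7 encodes a claudin of tight junctions and of the lateral membrane of many epithelia, where it binds EPCAM. Its mRNA (ENSG00000181885, chr17:7259903-7263983, minus strand, GRCh38) stood at 50.4, 38.5 and 36.8 CPM in the concave, convex and flat libraries numbered 3, against 11.7, 6.62 and 14.3 CPM in those numbered 1 and 5.96, 6.58 and 11.8 CPM in those numbered 2. The number 3 libraries were all higher than the other 6, and no plate shape broke the pattern. The mean was 41.9 ± 7.39 CPM in libraries numbered 3 (SD, n = 3) and 9.50 ± 3.54 CPM in libraries numbered 1 and 2 (SD, n = 6). In an edgeR model of number and plate shape this was a log2 difference of 2.23 (SE 0.219, 95% interval from 1.73 to 2.72; adjusted p = 0.00054), and the F test over the 3 numbers, which picks out none of them, also called it (edgeR adjusted p = 0.0018). Number 3 was set apart because earlier results on the same data showed it to differ, and no p of that comparison allows for the choice. Between the 3 numbers lay 89.0% of the CLDN7 sum of squares of log2(CPM + 1), and between the plate shapes 4.82%. The call held in all 17 alternatives, with log2 differences from 2.02 to 2.53.

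Between plate shapes CLDN7 averaged 22.7 ± 24.2 CPM on concave, 17.2 ± 18.4 CPM on convex and 21.0 ± 13.8 CPM on flat plates (SD, n = 3 each). The SD exceeded the mean on concave and convex plates, and each shape holds 1 library numbered 3, its highest. The log2 difference was 0.11 for concave against flat (95% interval from -1.81 to 2.04; edgeR adjusted p = 0.991) and -0.28 for convex against flat (95% interval from -2.21 to 1.64; edgeR adjusted p = 0.911). With the number as a block, convex against flat was -0.64 (SE 0.264, edgeR unadjusted p = 0.0383, edgeR adjusted p = 0.266). Concave against flat then turned to -0.27 (SE 0.264, edgeR adjusted p = 0.647). Of the exonic bases of CLDN7, 12.3% are shared with other annotated genes: 38 bases with ELP5 on the opposite strand, which averaged 44.0 CPM, and 269 bases with AC003688.1 on the same strand, which had no counts. The libraries are strand-specific, but the strand setting of the counting is unknown here, so reads on the 38 bases could belong to either gene.

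CLDN6 encodes a claudin typical of embryonic and stem-cell-derived epithelia that is largely absent from adult tissue. Its mRNA (ENSG00000184697, chr16:3014712-3020071, minus strand) stood at 987, 626 and 677 CPM in the concave, convex and flat libraries numbered 3, against 435, 401 and 562 CPM in those numbered 1 and 495, 565 and 696 CPM in those numbered 2. Within each shape the library numbered 3 was above the mean of the other pair, but flat 2 was higher than the convex and flat libraries numbered 3, so the groups overlapped. The mean was 763 ± 195 CPM in libraries numbered 3 (SD, n = 3) and 525.8 ± 106 CPM in the others (SD, n = 6), a log2 difference of 0.55 (SE 0.176) that missed the threshold (edgeR adjusted p = 0.0622; F test over numbers 0.107). It passed in 5 of 17 alternatives, and without concave 3, the library with the highest value, it was 0.23 (edgeR adjusted p = 0.296). On the scale of log2(CPM + 1), number 3 exceeded the mean of numbers 1 and 2 by 1.083 on concave, 0.37 on convex and 0.11 on flat plates. Between plate shapes CLDN6 averaged 639 ± 303 CPM on concave, 531 ± 116 CPM on convex and 645 ± 72.5 CPM on flat plates (SD, n = 3 each), with edgeR adjusted p of 0.995 for concave against flat and 0.711 for convex against flat. CLDN9, its neighbour and close paralog on chromosome 16, stood between 1.02 and 2.55 CPM, and whether reads were exchanged between both genes was not tested. Of its exonic bases 2.30% are shared with TNFRSF12A on the opposite strand.

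CLDN3 encodes a barrier-forming claudin of many epithelia. Its mRNA (ENSG00000165215, chr7:73768997-73770270, minus strand) stood at 19.8, 9.92 and 15.3 CPM in concave libraries 1, 2 and 3 and at 11.9, 10.4 and 8.71 CPM in convex libraries 1, 2 and 3, against 25.1, 31.6 and 12.4 CPM in flat libraries 1, 2 and 3. All convex libraries were below all flat ones, whereas the concave libraries spanned values of both. The means were 15.0 ± 4.94 CPM on concave, 10.3 ± 1.58 CPM on convex and 23.1 ± 9.80 CPM on flat plates (SD, n = 3 each). Convex against flat gave a log2 difference of -1.16 (SE 0.350, 95% interval from -1.93 to -0.38; unadjusted p = 0.0077, edgeR adjusted p = 0.513), and concave against flat -0.62 (SE 0.347, 95% interval from -1.39 to 0.15; edgeR adjusted p = 0.841). Both comparisons share the flat libraries. Without flat 2, the convex difference was -0.86 (edgeR adjusted p = 0.985) and the concave one -0.32 (edgeR adjusted p = 1.00). Within numbers 1, 2 and 3, convex against flat was -1.02, -1.51 and -0.46 on the scale of log2(CPM + 1), lower each time, and concave against flat was -0.33, -1.58 and 0.28. CLDN3 was the 1 member of 9 whose convex and flat values did not overlap, where 16.7% of all tested genes did not overlap and 7.76% were lower in every convex library. Libraries numbered 3 averaged 12.1 ± 3.28 CPM (SD, n = 3) and the others 18.1 ± 8.95 CPM (SD, n = 6), a log2 difference of -0.47 (edgeR adjusted p = 0.268) opposite in sign to those of CLDN7 and CLDN6.

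**Figure D2:**
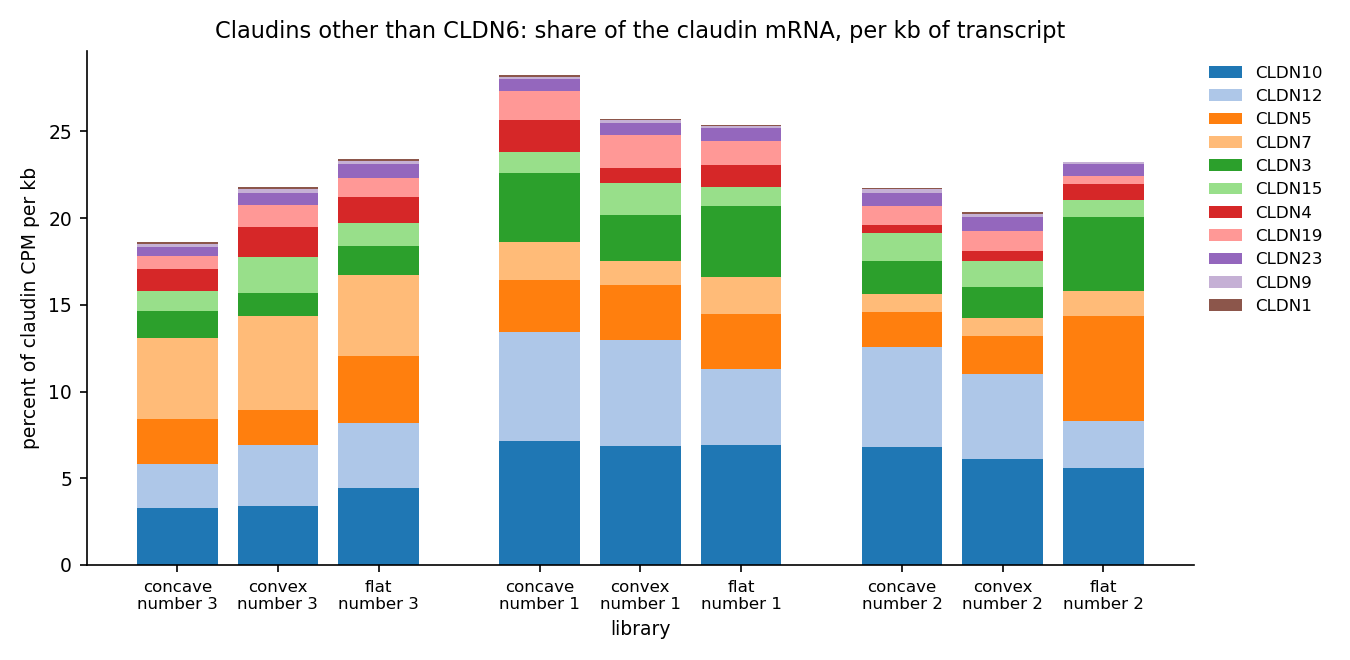
Share of each claudin other than CLDN6 in the summed claudin CPM per kb of transcript (stacked percent, linear axis from 0), 1 bar per library, for the 11 that averaged at least 1 CPM; CLDN6 makes up the rest. The CLDN7 band is widest in the 3 libraries numbered 3, at 4.66% to 5.39%, and the CLDN3 band is widest in concave 1 and flat 1 and 2.

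Per kb of transcript, CLDN6 made up between 71.5% and 81.2% of the summed claudin CPM in every library. The CLDN7 share was 4.66%, 5.39% and 4.66% in the concave, convex and flat libraries numbered 3, and between 1.04% and 2.17% in the other 6. CLDN10, a claudin of paracellular ion channels, ran the other way, with shares from 3.30% to 4.45% in the libraries numbered 3 and from 5.601% to 7.15% in the others; as a share it also moves with the other claudins. Its level was 21.7 ± 4.41 CPM in the libraries numbered 3 (SD, n = 3) and 27.5 ± 3.43 CPM in the others (SD, n = 6), which missed the threshold (edgeR adjusted p = 0.0878). Of 24 claudins listed, 12 averaged at least 1 CPM, and the other 12, among them CLDN2, CLDN8, CLDN11 and CLDN18, stayed under 1 CPM in every library.

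Occludin spans the membrane beside the claudins. OCLN mRNA (ENSG00000197822, chr5:69492292-69558104, plus strand) stood at 14.6, 16.7 and 16.5 CPM in the concave, convex and flat libraries numbered 3, against 12.6, 11.6 and 11.4 CPM in those numbered 1 and 13.8, 14.0 and 7.51 CPM in those numbered 2. With TMM scaling the 3 libraries numbered 3 were above the other 6, but by library size alone concave 3 was below concave 2. The means of 15.9 ± 1.13 CPM (SD, n = 3) and 11.8 ± 2.39 CPM (SD, n = 6) gave a log2 difference of 0.45 (SE 0.180), which did not pass (edgeR adjusted p = 0.119). Between plate shapes OCLN averaged 13.7 ± 1.00 CPM on concave, 14.1 ± 2.53 CPM on convex and 11.8 ± 4.50 CPM on flat plates (SD, n = 3 each), and the smallest edgeR adjusted p was 0.712. The pseudogene OCLNP1 stood at most at 0.368 CPM, and whether reads were exchanged between it and OCLN was not tested.

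TJP1, the ZO-1 scaffold, gave mRNA (ENSG00000104067, chr15:29699367-29968865, minus strand) at 157, 172 and 157 CPM in concave libraries 1, 2 and 3 and at 169.7, 171 and 189 CPM in convex libraries, against 141, 85.0 and 184 CPM in flat libraries. The curved libraries lay close together, and flat 2 alone stood below 140 CPM. The means were 162 ± 8.60 CPM on concave, 177 ± 10.4 CPM on convex and 137 ± 49.6 CPM on flat plates (SD, n = 3 each). Concave against flat gave a log2 difference of 0.24 (SE 0.237; edgeR adjusted p = 0.856) and convex against flat 0.37 (SE 0.237; edgeR adjusted p = 0.556). Without flat 2 these became -0.000659 and 0.11, so both rest on that library. The libraries numbered 3 averaged 176 ± 17.1 CPM (SD, n = 3) and the others 149 ± 33.6 CPM (SD, n = 6), a log2 difference of 0.28 (edgeR adjusted p = 0.345).

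PARD3 is the scaffold that places the PAR complex at the apical junction. Its mRNA (ENSG00000148498, chr10:34109560-34815325, minus strand) stood at 82.5, 87.2 and 91.9 CPM in the concave, convex and flat libraries numbered 3, against 77.2, 75.8 and 75.9 CPM in those numbered 1 and 73.9, 79.1 and 75.9 CPM in those numbered 2. The values hardly varied, yet with TMM scaling the 3 libraries numbered 3 were above the other 6. On that scale 80.9% of the sum of squares lay between numbers. By library size alone concave 3 was below concave 2, so the groups overlapped. The log2 difference was 0.19 (SE 0.102, 95% interval from -0.04 to 0.42; edgeR adjusted p = 0.230). Between plate shapes it was -0.06 for concave against flat and -0.01 for convex against flat, with 95% intervals from -0.38 to 0.25 and from -0.32 to 0.31.

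PRKCI encodes the atypical protein kinase C of the complex, which phosphorylates basolateral proteins out of the apical membrane. Its mRNA (ENSG00000163558, chr3:170222365-170305981, plus strand) stood at 74.6, 70.9 and 59.4 CPM in concave libraries 1, 2 and 3 and at 76.6, 69.4 and 72.6 CPM in convex libraries, against 67.3, 47.4 and 74.7 CPM in flat libraries. All but flat 2 and concave 3 lay between 67.3 and 76.6 CPM. PARD6B, the adaptor that links the kinase to CDC42, gave mRNA (ENSG00000124171, chr20:50731544-50756795, plus strand) at 7.38, 8.2 and 9.25 CPM in concave libraries and at 7.90, 9.29 and 7.32 CPM in convex libraries, against 8.74, 13.3 and 8.62 CPM in flat libraries. Flat 2 was the highest library for PARD6B and the lowest for PRKCI. Neither passed between plate shapes: for PRKCI the log2 difference was 0.11 for concave and 0.21 for convex against flat (edgeR adjusted p = 0.918 and 0.657), and for PARD6B -0.30 and -0.32 (edgeR adjusted p = 0.841 and 0.591). Between number 3 and the others the log2 difference was 0.04 for PRKCI and -0.10 for PARD6B (edgeR adjusted p = 0.882 and 0.719), and that of PRKCI was -0.06 when libraries were scaled by size alone.

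PALS1 is the scaffold that joins the Crumbs protein to PATJ and to the PAR complex. Its mRNA (ENSG00000072415, chr14:67241109-67335819, plus strand) stood at 38.5, 44.96 and 34.98 CPM in concave libraries 1, 2 and 3 and at 41.4, 45.3 and 39.6 CPM in convex libraries, against 34.0, 30.1 and 41.0 CPM in flat libraries. The flat libraries numbered 1 and 2 were the lowest of the 9. Convex against flat gave a log2 difference of 0.27 (SE 0.168, 95% interval from -0.11 to 0.64; edgeR adjusted p = 0.555) and concave against flat 0.17 (SE 0.168; edgeR adjusted p = 0.856). Of its sum of squares 1.75% lay between numbers, the least of the 9, and the log2 difference of number 3 was -0.0032, with a 95% interval from -0.32 to 0.32. That value turned to 0.0056 with DESeq2 size factors.

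**Figure D3:**
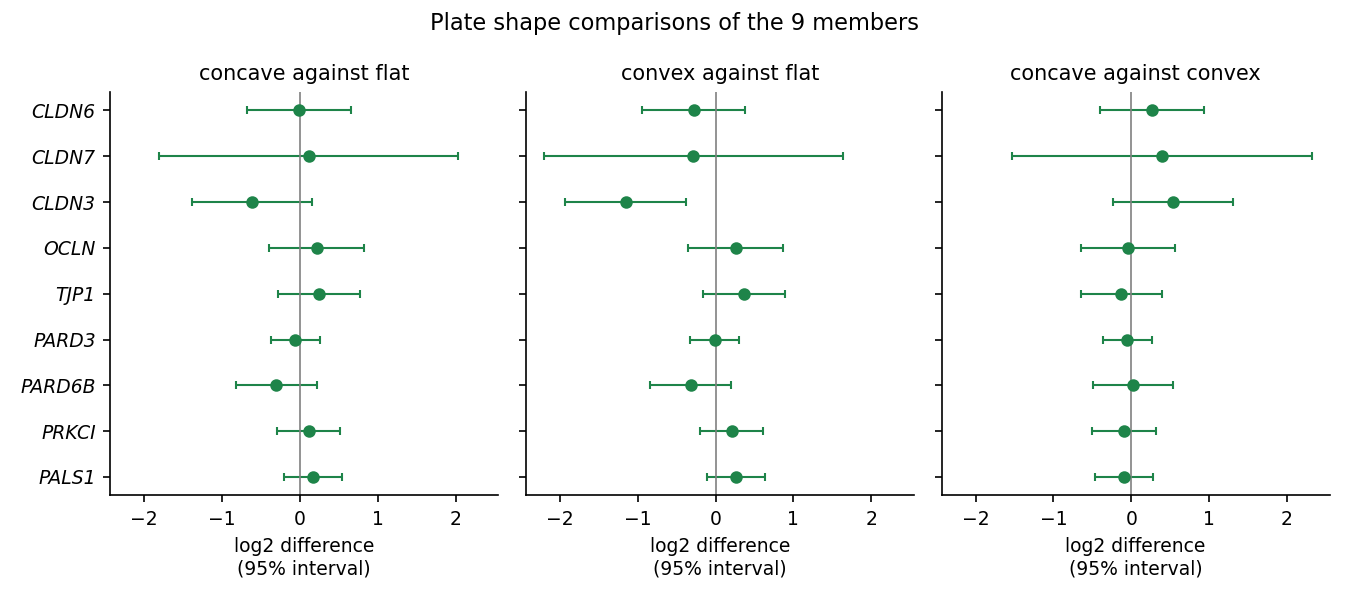
Log2 difference with its 95% interval (edgeR, 9 libraries, no replicate block) for each member and each pair of plate shapes, with a line at 0. The interval of CLDN3 for convex against flat, from -1.93 to -0.38, is the only one of the 27 that does not reach 0, and its adjusted p over all genes is 0.513; the intervals of CLDN7 are the widest.

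Between plate shapes 0 of the 9 members were called in any comparison, where 0% of all 23075 tested genes were called by edgeR. At an unadjusted p under 0.05, concave plates against flat ones gave 0 members and 1047 genes, convex plates against flat ones 1 member (CLDN3) and 2135 genes, and concave plates against convex ones 0 members and 65 genes. DESeq2 called 1 gene for convex against flat, not a member, and 0 in the other 2 comparisons, and limma voom called 0 in each. The members' median log2 difference was 0.11 for concave against flat and -0.01 for convex against flat, beside 0.01 and 0.01 over all tested genes. Concave values did not overlap with flat ones for 0 of 9 members (6.73% of all genes) or with convex ones for 0 of 9 (3.56% of all genes). Without a replicate block, the SE ran from 0.142 for PARD3 to 0.868 for CLDN7, whose 95% intervals reach past a 2-fold difference in both directions. With the number as a block, the CLDN7 SE for convex against flat was 0.264, at a log2 difference of -0.64. CLDN7 then joined CLDN3 at an unadjusted p under 0.05 for that comparison (edgeR unadjusted p = 0.0383, edgeR adjusted p = 0.266).

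Between numbers 1 of 9 members, or 11.1%, was called by the F test, where 11.8% of all tested genes were called. For number 3 against numbers 1 and 2 the count was again 1 of 9, CLDN7, where 17.9% of all genes were called, 8.79% higher and 9.14% lower. The members' share was near that of all genes. CPM ranges of number 3 and of the others did not overlap for 3 members, CLDN7, OCLN and PARD3, all higher. Of all genes, 24.2% did not overlap and 11.7% were higher without overlap. These ranges rest on TMM scaling, whose factor was 0.931 for concave 3 and 1.049 for concave 2. By library size alone, concave 3 was below concave 2 for OCLN and PARD3, so both overlapped. A median of 34.3% of the members' sum of squares lay between numbers and 20.9% between plate shapes, beside 38.9% and 21.2% over all tested genes. Scaled by library size alone, the median of all genes shifted by -0.10 and called genes split into 1478 higher and 2815 lower, beside 2028 higher and 2109 lower with TMM; CLDN7 was called higher under both. The 4137 calls over all genes became 2035 when concave 1 was left out, 2033 for convex 1, 2389 for convex 2 and 1077 for convex 3.

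**Figure D4:**
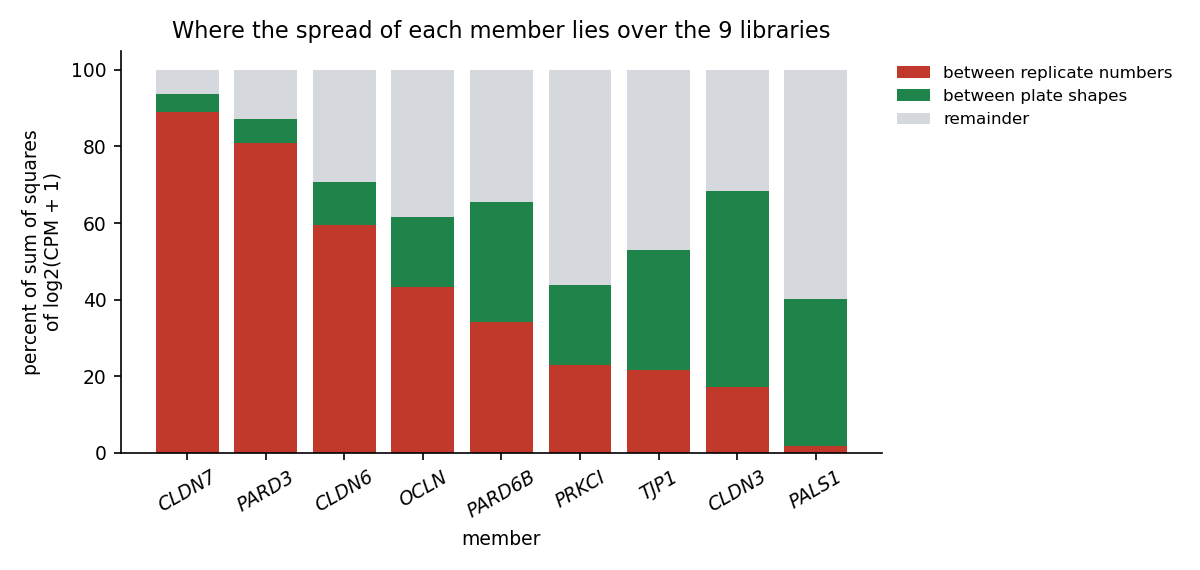
Stacked share of each member's sum of squares of log2(CPM + 1) over the 9 libraries (percent, linear axis from 0) that lies between replicate numbers, between plate shapes and in the remainder. The share between numbers is 89.0% for CLDN7 and 1.75% for PALS1, and the share between plate shapes is largest for CLDN3, at 51.4%.

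A separate difference of number 3 on each plate shape, a model chosen after seeing the data, gave 0 called genes for an unequal difference among shapes (edgeR, 1134 at an unadjusted p under 0.05, smallest adjusted p = 0.326). Among members the smallest edgeR adjusted p of that test was 0.891. Between pairs of shapes the smallest were those of concave minus flat, 0.452 for CLDN6 (unadjusted p = 0.0323) and 0.456 for CLDN3 (unadjusted p = 0.0485), with edgeR. On the scale of log2(CPM + 1), number 3 against the mean of the others was -0.07 on concave, 0.14 on convex and 0.70 on flat plates for TJP1, and 2.38, 2.38 and 1.43 for CLDN7. For CLDN3 it was 0.04, -0.32 and -1.14.

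The wider lists of polarity and junction genes place the members among their partners. In the PAR complex list, 1 of 8 tested genes was called higher and 1 lower in the libraries numbered 3, with a median log2 difference of -0.08 beside 0.0092 over all genes, of which 8.79% were called higher and 9.14% lower. The 2 called genes were relatives of members: PARD3B, a paralog of PARD3, averaged 5.11 ± 0.602 CPM in libraries numbered 3 (SD, n = 3) and 1.96 ± 0.420 CPM in the others (SD, n = 6; log2 difference 1.40, edgeR adjusted p = 0.0028), and PARD6A, a paralog of PARD6B, averaged 2.15 ± 0.0793 CPM and 3.97 ± 1.43 CPM in the same groups (log2 difference -0.82, edgeR adjusted p = 0.0309). PRKCZ, the other atypical kinase, had a log2 difference of -0.21 and PARD6G one of -0.19, and neither passed (edgeR adjusted p = 0.268 and 0.445). CDC42, the GTPase of the complex, stood between 1.304 and 3.27 CPM. Shared exonic bases were examined for the members only, so whether reads of CDC42 were left uncounted was not tested. The PARD3B call held in 17 of 17 alternatives and that of PARD6A in 11; it was lost without concave 1, convex 1, 2 or 3, flat 1 or flat 3, with adjusted p up to 0.136. The F test over numbers called both, PARD3B in 16 of 17 alternatives and PARD6A in 10.

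In the Crumbs complex list, 1 of 9 tested genes was called higher and 1 lower, where 17.9% of all genes were called. CRB3, the Crumbs protein of most epithelia, stood at 7.39, 7.30 and 7.78 CPM in the concave, convex and flat libraries numbered 3, and between 1.502 and 2.73 CPM in the other 6 (log2 difference 2.03, SE 0.166; edgeR adjusted p = 0.0003). The groups did not overlap, and the call held in 17 of 17 alternatives. The lower gene, CRB1, was under 1 CPM in every library and is named after its values were seen. CRB2, the Crumbs protein of neural epithelia, averaged 87.9 ± 7.05 CPM in libraries numbered 3 (SD, n = 3) and 100.1 ± 20.3 CPM in the others (SD, n = 6), which did not pass (edgeR adjusted p = 0.457). PATJ, the partner of PALS1, had a log2 difference of 0.47 (edgeR adjusted p = 0.0625). LIN7A, which binds PALS1, passed the F test over numbers (edgeR adjusted p = 0.0271) and not the contrast of number 3 (edgeR adjusted p = 0.557): it stood between 28.9 and 38.2 CPM in libraries numbered 3, between 31.9 and 43.3 CPM in those numbered 1 and between 21.6 and 25.9 CPM in those numbered 2. Its F test call was lost when concave 1, concave 2, convex 1, convex 2, convex 3 or flat 1 was left out.

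In the list of the basolateral Scribble complex and polarity kinases 0 of 12 tested genes were called for number 3 by edgeR, with 2 at an unadjusted p under 0.05 and a median of 0.08. Of all 23075 tested genes, 17.9% were called and 7495 had an unadjusted p under 0.05. The smallest p values were those of MARK2 and MARK4, kinases that act against the PAR complex: their log2 differences were 0.34 and -0.35 (edgeR adjusted p = 0.0685 and 0.0756). Without flat 2 both passed, as did LLGL1 at -0.29 (edgeR adjusted p = 0.0469, 0.0216 and 0.0437). All 3 also passed with a correction for transcript length (edgeR adjusted p = 0.0275 for MARK2, 0.0225 for MARK4 and 0.0471 for LLGL1), and MARK4 passed with scaling by library size alone (edgeR adjusted p = 0.0284). In the F test over numbers MARK4 missed the threshold (edgeR adjusted p = 0.0548) and passed in 7 of 17 alternatives, DESeq2 among them (adjusted p = 0.0205). For number 3, DESeq2 and limma voom called none of MARK2, MARK4, LLGL1 and SCRIB.

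The claudin list had 5 of 15 tested genes called higher in libraries numbered 3 and 0 lower, with a median log2 difference of 0.55 beside 0.0092 over all genes; 8.79% of all genes were called higher. Besides CLDN7 these were CLDN1, an essential claudin of the skin barrier, at 2.99 ± 0.492 CPM in libraries numbered 3 (SD, n = 3) and 1.14 ± 0.309 CPM in the others (SD, n = 6), CLDN4, CLDN9 and CLDN15. CLDN4, a neighbour and close relative of CLDN3 on chromosome 7, averaged 37.5 ± 2.93 CPM in libraries numbered 3 (SD, n = 3) and 18.0 ± 8.95 CPM in the others (SD, n = 6), a log2 difference of 1.19 (edgeR adjusted p = 0.0236), whereas CLDN3 itself had -0.47. The log2 difference was 1.39 for CLDN1, 0.88 for CLDN9 and 0.63 for CLDN15 (edgeR adjusted p = 0.0096, 0.0164 and 0.0113). The CLDN1 call held in 17 of 17 alternatives, those of CLDN4, CLDN9 and CLDN15 in 11, 12 and 13. Leaving out concave 3, convex 2 or convex 3 ended all 3 of these; concave 1 ended CLDN9 and CLDN15, convex 1 ended CLDN4 and CLDN9, and flat 1 ended CLDN4, as did testing every gene with at least 1 count, with adjusted p up to 0.180. The F test over numbers called all 4 less firmly, with edgeR adjusted p of 0.0285 for CLDN1, 0.0287 for CLDN15, 0.0397 for CLDN9 and 0.0471 for CLDN4. There CLDN1 was called in 11 of 17 alternatives, CLDN15 in 10, CLDN9 in 9 and CLDN4 in 6, and without convex 3 the adjusted p was 0.106 for CLDN1, 0.210 for CLDN15, 0.218 for CLDN9 and 0.257 for CLDN4. CLDN12 averaged 20.9 CPM per kb over the 9 libraries, CLDN19 5.70 and CLDN23 3.52, and none of these 3 passed between numbers.

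Among the other membrane proteins of tight junctions 2 of 8 tested genes were called higher in libraries numbered 3 and 0 lower, where 8.79% of all genes were called higher, with a median of 0.41. MARVELD3, a relative of occludin, stood at 32.8, 29.99 and 26.9 CPM in the concave, convex and flat libraries numbered 3 and between 7.09 and 11.8 CPM in the other 6 (log2 difference 1.75, SE 0.134; edgeR adjusted p = 0.00025). MARVELD2, the tricellulin of three-cell contacts, averaged 33.8 ± 2.22 CPM in libraries numbered 3 (SD, n = 3) and 22.5 ± 3.08 CPM in the others (SD, n = 6; log2 difference 0.59, edgeR adjusted p = 0.0232). OCLN, from the same family, had the smaller difference of 0.45 given above. The MARVELD3 call held in 17 of 17 alternatives and that of MARVELD2 in 11; it was lost without concave 1, concave 3, convex 1, convex 3 or flat 3, and with scaling by library size alone (edgeR adjusted p up to 0.0872). MARVELD2 did not pass the F test over numbers (edgeR adjusted p = 0.0621).

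Among the scaffolds and associated proteins 4 of 15 tested genes were called higher in libraries numbered 3 and 0 lower, where 8.79% of all genes were called higher, with a median of 0.25. They were CGNL1 (paracingulin) with a log2 difference of 1.64, AMOTL2 with 1.22, CGN (cingulin) with 0.90 and YBX3 with 0.51 (edgeR adjusted p = 0.00045, 0.0042, 0.0061 and 0.0147). Cingulin and paracingulin bind TJP1 at the junction, and CGNL1 averaged 119 ± 8.78 CPM in libraries numbered 3 (SD, n = 3) and 38.9 ± 9.11 CPM in the others (SD, n = 6). Without convex 3 the calls of AMOTL2 and CGN were lost (edgeR adjusted p = 0.0546 and 0.0576). The YBX3 call was lost without concave 1, concave 3, convex 1, convex 2 or convex 3 (edgeR adjusted p up to 0.110). In the F test over numbers CGNL1 was called in 17 of 17 alternatives, AMOTL2 in 16, CGN in 14 and YBX3 in 9.

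**Figure D5:**
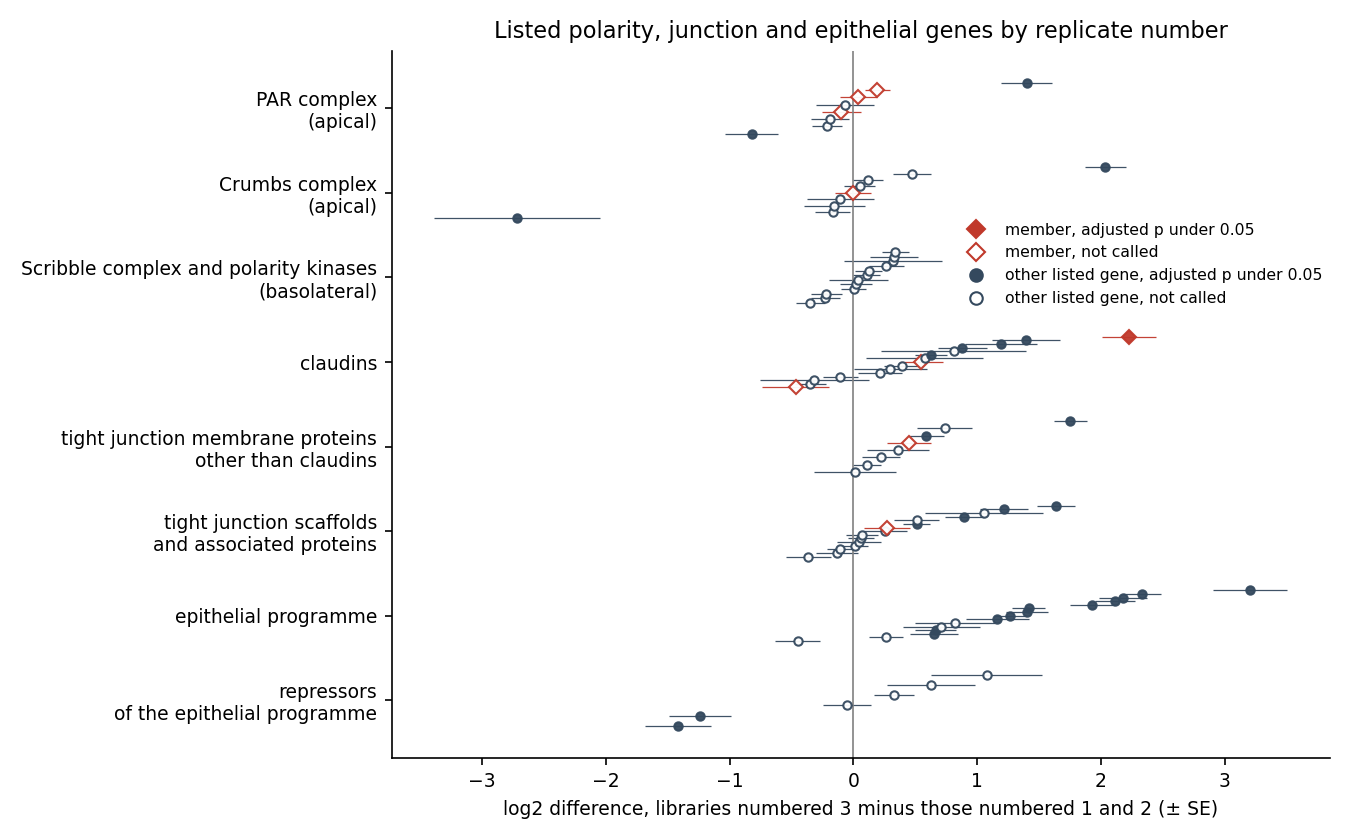
Log2 difference ± SE (edgeR) of libraries numbered 3 minus those numbered 1 and 2 for each tested gene of 8 lists, members as diamonds and other genes as circles, filled where the adjusted p is under 0.05. Filled points lie mostly right of 0 in the claudin, membrane protein, scaffold and epithelial rows and left of 0 for 2 repressors, and 8 of the 9 member diamonds are open.

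Most genes of the general epithelial programme were higher in the libraries numbered 3, as CLDN7 was. Of 15 tested epithelial genes 11 were called higher in libraries numbered 3 and 0 lower, where 8.79% of all genes were called higher, with a median of 1.27. EPCAM, the adhesion molecule that binds CLDN7, stood at 314, 265 and 256 CPM in the concave, convex and flat libraries numbered 3 and between 47.6 and 77.6 CPM in the other 6 (log2 difference 2.33, SE 0.151; edgeR adjusted p = 0.00017). The log2 difference was 2.11 for the transcription factor GRHL2, 2.18 for the splicing regulator ESRP2 and 1.42 for E-cadherin, CDH1 (edgeR adjusted p = 0.00026, 0.00042 and 0.00047). Of 6 repressors 2 were called lower and 0 higher, where 9.14% of all genes were called lower. Their log2 differences were above 0 for 3 and below 0 for 3, with a median of 0.14. ZEB1 averaged 4.30 ± 0.888 CPM in libraries numbered 3 (SD, n = 3) and 11.9 ± 3.41 CPM in the others (SD, n = 6). ZEB2 averaged 48.3 ± 11.9 CPM and 117 ± 26.7 CPM in the same groups. The log2 differences were -1.42 for ZEB1 and -1.24 for ZEB2 (edgeR adjusted p = 0.0082 and 0.0105). Without convex 3 both calls were lost (edgeR adjusted p = 0.0784 and 0.0959). In the F test over numbers both were called (edgeR adjusted p = 0.0241 and 0.0292), and both calls were lost when concave 1, concave 3, convex 1, convex 2, convex 3 or flat 1 was left out, with adjusted p up to 0.183 for ZEB1 and 0.201 for ZEB2. SNAI1 and TWIST2 did not pass, with log2 differences of 0.32 and -0.05, and SNAI2 and TWIST1 were under 1 CPM in every library.

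Markers of other cell types also moved with the number. Of all tested genes, 8.79% were called higher and 9.14% lower in libraries numbered 3. Of pluripotency markers 7 of 8 tested were called higher in libraries numbered 3, led by TDGF1 at 159 ± 34.9 CPM (SD, n = 3) and 2.70 ± 1.45 CPM in the others (SD, n = 6), L1TD1 and POU5F1, and NANOG was under 1 CPM in every library. Of early neuroectoderm markers 6 of 9 tested were called lower, led by LIX1, PAX6 and SIX3. LHX2, OTX2 and SOX1 were not called in that comparison, with log2 differences of -0.60, 0.06 and 0.12. Of non-neural ectoderm markers 3 of 6 tested were called higher: KRT7, KRT18 and GATA2. Their list summed to between 663 and 755 CPM in libraries numbered 3 and to between 421 and 827 CPM in the others, and TFAP2A, TFAP2B, GATA3, DLX5 and TP63 were under 1 CPM in every library. Amnion and trophectoderm markers summed to between 39.9 and 43.0 CPM in libraries numbered 3 and to between 20.3 and 26.6 CPM in the others, with 2 of 3 tested, TFAP2C and VTCN1, called higher and ISL1, HAND1, CGA, WNT6 and HAND2 under 1 CPM in every library. Mesenchyme, endothelium and blood markers summed to between 1014 and 1511 CPM in libraries numbered 3 and to between 510 and 1141 CPM in the others, with 3 called higher, KDR among them, and 3 lower, CDH5 and PDGFRB among them, of 6 tested. The part of these markers in the CLDN7 difference was not tested, and in bulk RNA fewer cells of a type and less RNA per cell cannot be told apart.

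Between plate shapes 0 genes of any of these lists were called by edgeR. CLDN5, the claudin of the blood-brain barrier, was like CLDN3 below all flat values on convex plates. It stood at 16.2, 11.2 and 28.0 CPM in concave libraries 1, 2 and 3 and at 15.2, 13.8 and 14.4 CPM in convex libraries, against 21.3, 48.5 and 30.1 CPM in flat libraries. Flat 2 was again the highest library, whereas flat 3 was above flat 1 for CLDN5 and below it for CLDN3. The log2 difference was -1.20 for convex and -0.85 for concave against flat (edgeR adjusted p = 0.513 and 0.841). F11R, the junction adhesion molecule A, averaged 187 ± 46.0 CPM on concave, 151 ± 16.0 CPM on convex and 214 ± 20.5 CPM on flat plates (SD, n = 3 each; convex against flat log2 -0.50, edgeR adjusted p = 0.513). CRB2 averaged 102 ± 13.1 CPM on concave, 107 ± 13.1 CPM on convex and 79.2 ± 15.0 CPM on flat plates (SD, n = 3 each), with a log2 difference of 0.44 for convex against flat (edgeR adjusted p = 0.513). The scaffold list had a median of 0.21 for concave and 0.25 for convex against flat, beside 0.01 and 0.01 over all genes. Its summed CPM was lowest in flat 2, at 694, where the other 8 libraries lay at or above 916. AMOTL1, a scaffold, had a log2 difference of 0.48 for convex against flat, the kinase MARK1 0.37 and the protease inhibitor SPINT2 -0.49, and none passed (edgeR adjusted p = 0.513, 0.514 and 0.513).

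The genes with the pattern most like each member's were taken as those with the highest Pearson r of log2(CPM + 1) over the 9 libraries, among 11954 genes averaging at least 5 CPM. These are descriptions over 9 libraries that include flat 2. For CLDN7 they were PYGM (r = 0.991), AK3 (0.984) and SMPDL3B (0.984), and for CLDN6 TMEM39B (0.982), TLCD1 (0.981) and LSR (0.976), a receptor of three-cell contacts. For CLDN3 they were HLA-E (0.985), KXD1 (0.981) and MKRN1 (0.977), and for OCLN KIF23 (0.995), TMEM184C (0.986) and MAP2K4 (0.984). For TJP1 they were RFC1 (0.997), HEATR1 (0.996) and YTHDF3 (0.995), for PRKCI SMAD5 (0.995), RAPGEF2 (0.990) and INPP4A (0.989), and for PALS1 TLN2 (0.988), PDS5B (0.982) and IPO9 (0.978). PARD6B was most like FAM104B (0.987), ZC3HC1 (0.984) and CHD4 (0.983), and PARD3 like PPP2R2A (0.953), LSM14A (0.952) and ENOPH1 (0.933), the lowest values of the 9 members. No member was among the 3 genes most like another member.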

How the data were processed

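Poly(A)-selected RNA of the H9 cell line was sequenced as 9 libraries, and the authors' deposited table gives raw read counts per Ensembl gene for 62710 genes. Per the submitters' processing notes, HISAT2, featureCounts and GRCh38 were used; no source used here gives versions, the annotation release or the strand setting. Every per-library column belongs to 1 of the 9 libraries. Symbols came from a separate list of gene names, which held 62639 of the identifiers. Coordinates and lengths came from GENCODE v29, which held 58274 of them.

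The fits used edgeR 4.0.16 under R 4.3.3, with TMM scaling, the filterByExpr filter (minimum count 10; 23075 genes kept), robust quasi-likelihood tests and Benjamini-Hochberg adjustment over all tested genes, with a threshold of 0.05. Plate shapes were compared in a fit on all 9 libraries with no block. Replicate numbers, and number 3 against numbers 1 and 2, were compared in an additive model of number and plate shape. The fits were tested on simulated counts with known changes. Alternatives were other scaling and filters, DESeq2 1.42.0, limma 3.58.1 voom, each library left out, the 6 libraries of a comparison alone, a correction for transcript length (95.1% of tested genes had one), a replicate block, and no plate shape term.

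The members and lists were chosen with earlier results of these data known. Besides the members, the text names from each pathway list up to 4 genes by the number F test and up to 2 by the plate shape F test, all claudins averaging at least 1 CPM, the 3 genes most like each member, and up to 3 markers per list. LHX2, OTX2 and SOX1 are named besides these, after their values were seen. Deviations from the group means of same-numbered libraries correlated at 0.557, 0.275 and 0.592 for concave with convex, at 0.348, 0.378 and 0.6 for convex with flat, and at 0.358, 0.0145 and 0.321 for concave with flat (numbers 1, 2 and 3). By a minimum of 0.1 in every same-numbered pair, convex passed with the other 2 shapes, and concave with flat failed through number 2 alone. Some unlike numbers also exceeded 0.1, among them concave 2 with convex 1 at 0.19 and concave 1 with flat 2 at 0.142. Others lay well below 0, such as concave 3 with convex 1 at -0.56. The minimum therefore cannot settle whether libraries were paired by number.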

Additional observations from a re-analysis of the deposited data

Results flagged for a closer look

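The flat library numbered 2 lay apart from the other 5 libraries numbered 1 and 2 for 3 of the 9 members, by a gap to the nearest library larger than 0.625 of the whole range, the 95% critical value of Dixon's test for 6 libraries. TJP1 stood at 85.0 CPM there, PRKCI at 47.4 CPM and PARD6B at 13.3 CPM, the first pair below and PARD6B above the other libraries. The gap was 0.648 of the range for TJP1, 0.680 for PRKCI and 0.675 for PARD6B. Chance flags about 1 in 20 groups drawn from a single population, and 9 groups were examined. These are 9 genes in the same 6 libraries, which come from 3 plate shapes. The flags are therefore not independent and cannot be set against that rate.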

How the results depend on the processing

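CLDN7 was called under all 17 alternatives of both number tests, and no member was called between plate shapes under any. The contrast of number 3 gave CLDN7 as higher each time, whereas the F test has no direction. DESeq2 called 1 gene for convex against flat. Leaving out 1 library moved the count for number 3 between 1077 and 5575 genes, and the F test over numbers between 352 and 4999; the F test gave 4465 genes with DESeq2, 4201 with the length correction and 4087 with no filter beyond 1 count. Members called in each number test were 2 with DESeq2, the length correction and no filter, and between 1 and 2 with 1 library left out; the second was CLDN6, or CLDN3 without concave 2. Directions turned only for small differences. CLDN7, concave against flat, was 0.11 without a block and -0.27 with the replicate block. TJP1, concave against flat, lay between -0.000659 and 0.51 with 1 library left out. Of number 3 differences, PALS1 was 0.0056 with DESeq2 and with DESeq2 size factors, and between -0.21 and 0.094 with 1 library left out; PRKCI was -0.028 with the length correction, -0.057 by library size only, and between -0.17 and 0.18 with 1 left out; TWIST2 was 0.027 with the length correction and between -0.20 and 0.057 with 1 left out. By library size only, PARD3 averaged 78.2 CPM in libraries numbered 1 and 2. The causes were not tested. The replicate block changed no call: CLDN3, convex against flat, was -1.12 with it (edgeR adjusted p = 0.264), and concave against flat -0.57 (edgeR adjusted p = 0.506). OCLN and PARD6B, the members with the fewest reads per length, still had at least 357 counts in every library.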
